A study of Mus musculus with 6 samples.

Results

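The 34 genes described here encode Polycomb repressive complex subunits and the chromatin enzymes that act against them. They were taken by symbol, not by a cut on their values, from the table of all genes, which lists 23955 symbols. Earlier results of these data were known when they were chosen. All 34 were listed and all 34 passed the filter on low values, a mean of at least 1 TPM over the 6 libraries. They comprise 6 core subunits of Polycomb repressive complex 2 (PRC2), 4 PRC2 accessory subunits, 8 RING and PCGF subunits of Polycomb repressive complex 1 (PRC1), 9 CBX, PHC, SCM and RYBP subunits of PRC1, and 7 opposing factors. The libraries were made from haematopoietic stem cells (HSCs) of db/db mice, which lack a working long leptin receptor and become obese (3 libraries), and of wild-type (WT) littermates (3 libraries). All mice were 4 months old, on the C57BL/6 background and carried no other allele or treatment named in the labels. HSCs were sorted from bone marrow as CD150+CD48- cells of the lineage-negative, Sca1+, c-Kit+ fraction, with 20000 cells per library, and mRNA was sequenced as stranded, paired reads of 75 nucleotides. One library of each genotype came from each of 3 independent experiments. Whether a library was 1 mouse or a pool was not given in the sources used here, and the labels name no cell type to which the mutation is limited, so an effect within HSCs and an effect of the obese host cannot be told apart.

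PRC2 places methyl groups on lysine 27 of histone H3 (H3K27) through EZH1 or EZH2, and PRC1 places ubiquitin on histone H2A through RING1 or RNF2. Each PRC1 complex holds 1 PCGF protein. It also carries either a CBX and a PHC subunit (canonical PRC1) or RYBP or its relative YAF2 (variant PRC1). In HSCs, Polycomb proteins such as BMI1 and CBX7 are known for sustaining self-renewal, and the opposing factors remove the Polycomb marks or place marks of active genes.

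Values are TPM, a transcript level corrected for transcript length and scaled to the same total in every library, so a TPM is a share of the library. The number of reads behind each value is unknown. In bulk samples, fewer cells of a type and less RNA per cell cannot be told apart. Between 13314 and 13810 symbols had a value above 0 in each library. The HSC and gate genes Procr, Slamf1, Hlf, Mecom, Fgd5, Kit and Ly6a were all present, with a summed level of 1020 to 1260 TPM in db/db HSCs and 783 to 1288 TPM in WT HSCs. Cd48 and Flt3, which mark cells outside the gate, summed to 22.9 to 51.0 TPM in db/db HSCs and 10.4 to 14.0 TPM in WT HSCs, without overlap. Of the pair, Flt3 did not overlap (18.4, 29.6 and 21.3 TPM in db/db HSCs, against 8.62, 6.18 and 12.7 TPM in WT HSCs), whereas Cd48, the gate marker, did (9.10, 21.4 and 1.63 TPM in db/db HSCs, against 5.35, 4.2 and 1.09 TPM in WT HSCs). The granulocyte genes S100a8, S100a9, Ngp, Camp and Ltf, of which none was at 0, summed to 3370, 1278 and 1226 TPM in db/db HSCs of experiments 1, 2 and 3, against 4183, 170 and 243 TPM in WT HSCs. The T cell genes Cd3e and Cd3g and the B cell gene Ms4a1 were listed at 0 in every library. The part of the Flt3, Cd48 and granulocyte transcripts in the results was not tested. Lepr was listed at 1.51, 2.44 and 2.04 TPM in db/db HSCs and 2.34, 2.93 and 2.79 TPM in WT HSCs, which does not check the genotype, since a value per gene does not separate the long receptor form from the others.

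In db/db HSCs against WT HSCs, none of the 34 genes passed the test (limma on log2(TPM + 1), Benjamini-Hochberg adjusted p under 0.05 over the 11931 genes tested); their adjusted p-values ranged from 0.619 to 1. Among all genes tested, 4 passed, or 0.0335%. At an unadjusted p under 0.05 by limma, 1 of the 34 was higher, Pcgf5 (2.94% of them), where 4.10% of all genes tested were higher, and 0 were lower, where 1.25% of all genes were. After median-of-ratios scaling, 2.49% of all genes were higher and 2.98% lower at that p by limma. With the experiment as a replicate block, 3 of the 34 had an unadjusted p under 0.05 by limma, namely Pcgf5, Rbbp7 and Cbx6, all higher in db/db HSCs, and 0 passed after adjustment. In the same blocked limma fit, 5.41% of all genes tested were higher and 1.62% lower at that p.

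The median log2 fold change of the 34 genes (db/db minus WT) was 0.27, against 0.18 for all genes tested, a difference of 0.088. Relative to the median of all genes in the same experiment, the 34 genes had a median of -0.085 in experiment 1, 0.32 in experiment 2 and -0.014 in experiment 3, so the excess was seen in experiment 2 and not in the others. Of the 34 genes, 28 had a log2 fold change above 0 and 6 below 0, but 22 exceeded the all-gene median and 12 fell short of it. The shift of all genes was 0.45 in experiment 2, against 0 in experiment 1 and 0.095 in experiment 3, and after median-of-ratios scaling it was 0.0031 over the 3 experiments. A positive fold change smaller than 0.18 is therefore below that of the median gene.

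Of the 34 genes, 5 (14.7%) had every db/db library above every WT library: Pcgf5, Phf1, Cbx6, Pcgf6 and Dot1l. The same separation was seen for 7.85% of all genes tested. Separations of TPM values, here and below, were read without scaling between libraries. The factors of the median-of-ratios scaling were 0.90, 1.12 and 1.21 in db/db HSCs and 0.90, 0.80 and 1.12 in WT HSCs. A gap that is small beside these factors need not hold after that scaling. Divided by the factors, the values of Pcgf6 and Dot1l overlap between the groups, while those of Pcgf5, Phf1 and Cbx6 do not. The share of all genes that separate after scaling was not computed. None of the 34 had every db/db library below every WT library, where 2.32% of all genes did. Within experiments, 9 of the 34 (26.5%) were higher in db/db HSCs in all 3, where 22.7% of all genes were, and 1 (2.94%), Bap1, was lower in all 3, where 7.55% of all genes were. The 9 were Rbbp4, Rbbp7, Phf1, Phf19, Pcgf5, Pcgf6, Cbx6, Dot1l and Men1. The share higher in all 3 experiments is close to that of all genes.

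**Figure D1:**
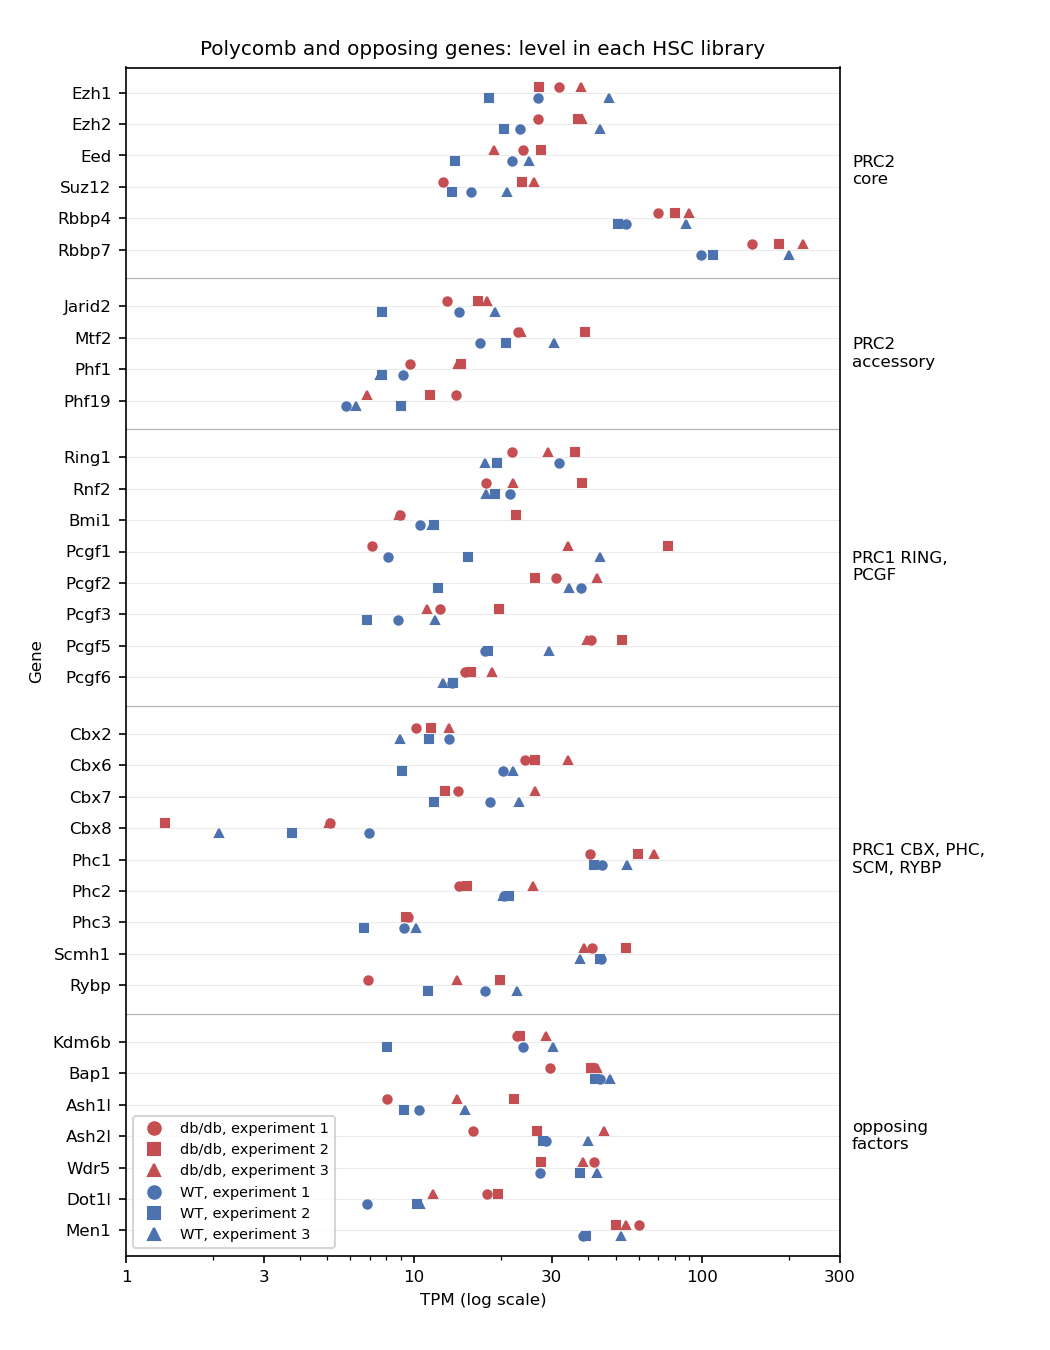
Level of each of the 34 genes in each library, in TPM on a log scale, with db/db libraries in red above WT libraries in blue and the symbol giving the experiment. The red and blue points separate for Pcgf5, Phf1, Cbx6, Pcgf6 and Dot1l and interleave for the other genes.

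**Figure D2:**
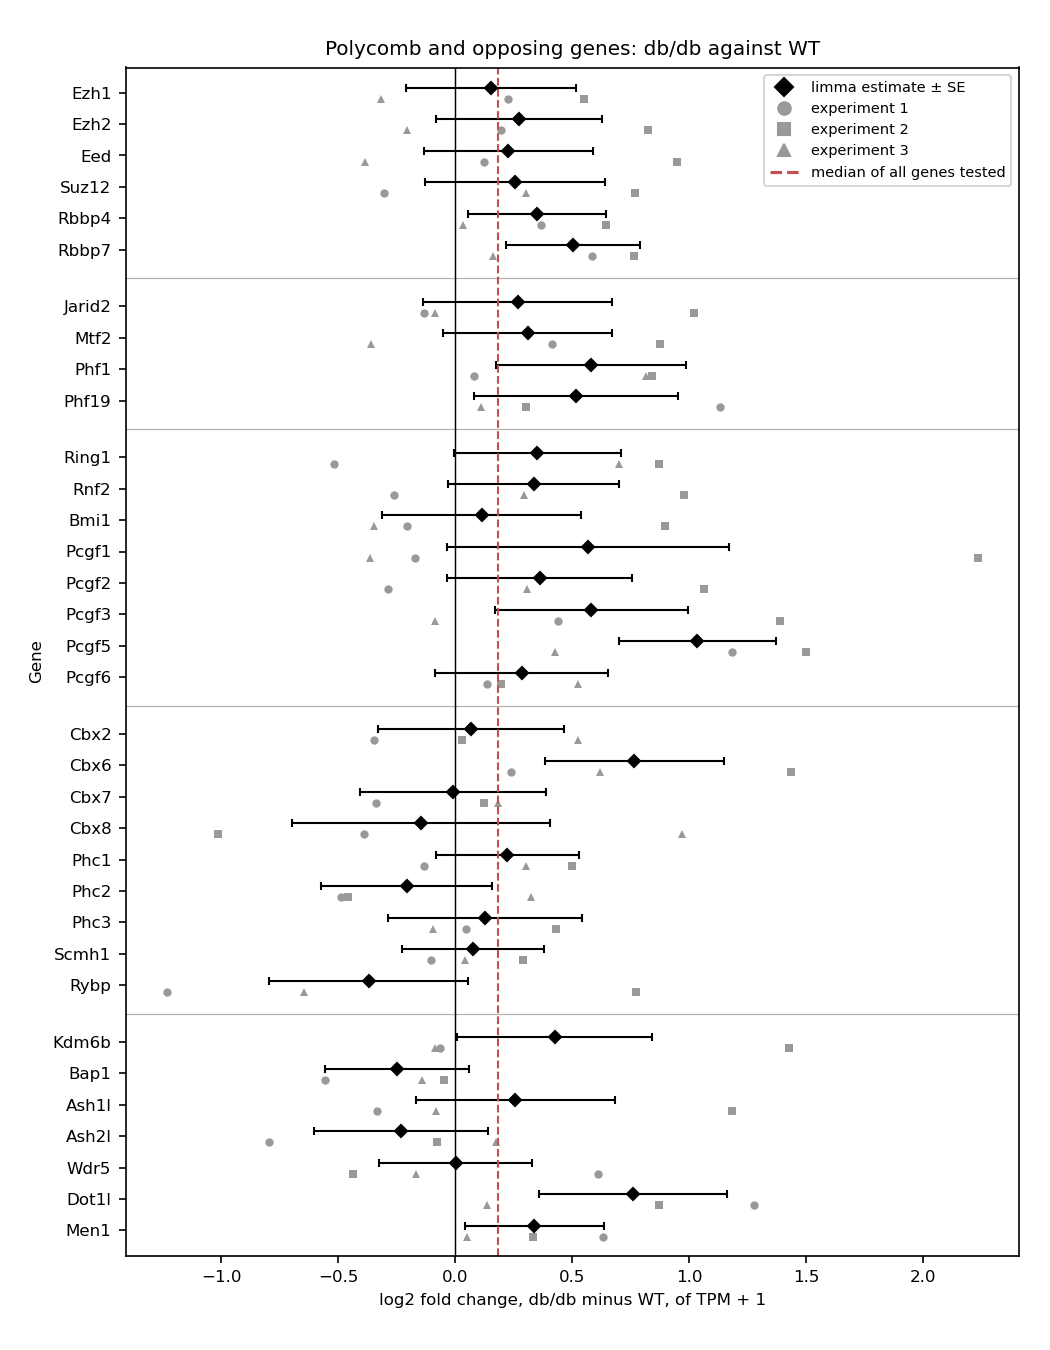
Log2 fold change of each gene, db/db minus WT, of TPM + 1. Black diamonds are the limma estimate with its standard error, grey symbols are the differences within each experiment, and the dashed red line is the median of all genes tested (0.18); Pcgf5 lies farthest right at 1.04, and the squares of experiment 2 lie right of the other symbols for many genes.

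The 34 genes spanned a wide range of levels. Rbbp7 had the highest mean over the 6 libraries at 161 TPM, followed by Rbbp4 at 72.1 TPM, Phc1 at 51.6 TPM and Men1 at 49.1 TPM. Phf19 at 8.88 TPM and Cbx8 at 4.07 TPM were the lowest. When the genes were ordered by mean level, only 2 of the 33 pairs of neighbours kept their order in all 6 libraries, Rbbp7 over Rbbp4 and Rbbp4 over Phc1, so the order of the other 31 pairs was within the spread of the libraries.

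The PRC2 core comprised the methyltransferases Ezh1 and Ezh2, the H3K27 methylation reader Eed, the scaffold Suz12 and the histone-binding proteins Rbbp4 and Rbbp7. Its 6 genes had a median log2 fold change 0.083 above that of all genes, and 5 of 6 lay above it. Within experiments 1, 2 and 3, the median relative to all genes was 0.21, 0.32 and -0.18. Ezh2 had 26.8, 36.9 and 38.1 TPM in db/db HSCs, against 23.3, 20.4 and 44.1 TPM in WT HSCs, and a log2 fold change of 0.27 ± 0.35 (SE, n = 3 each). The groups overlapped, and the highest of the 6 values was a WT library. Ezh1 had 31.7, 27.02 and 37.9 TPM in db/db HSCs, against 26.96, 18.1 and 47.4 TPM in WT HSCs, again with both the lowest and the highest value in WT HSCs. EZH1 and EZH2 are alternative catalytic subunits, and EZH2 is the one usually tied to dividing cells. Here both were present at like levels, Ezh2 making up 45.8%, 57.7% and 50.2% of their summed TPM in db/db HSCs and 46.3%, 53.0% and 48.2% in WT HSCs.

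The promoters of Ezh2, Ezh1 and Suz12 are shown because Ezh2 and Ezh1 fill the same place in PRC2 and because Ezh2 is known as a target of E2F factors, which drive genes of the cell cycle. The windows run from 250 bases before to 30 bases after the most upstream start (RefSeq, GRCm38.p6), at chr6:47595001-47595280 on the minus strand for Ezh2, chr11:101226434-101226713 on the minus strand for Ezh1 and chr11:79992856-79993135 on the plus strand for Suz12. Capitals mark an E2F-type motif, searched on both strands as TTTGGCGC, TTTGCCGC, TTTCGCGC and TTTCCCGC.
Ezh2: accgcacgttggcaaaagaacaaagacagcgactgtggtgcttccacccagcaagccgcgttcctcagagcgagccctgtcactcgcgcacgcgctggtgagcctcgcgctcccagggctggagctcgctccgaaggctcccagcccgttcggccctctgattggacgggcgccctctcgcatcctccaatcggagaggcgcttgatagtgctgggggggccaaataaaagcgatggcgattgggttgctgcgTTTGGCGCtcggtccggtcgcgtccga
Ezh1: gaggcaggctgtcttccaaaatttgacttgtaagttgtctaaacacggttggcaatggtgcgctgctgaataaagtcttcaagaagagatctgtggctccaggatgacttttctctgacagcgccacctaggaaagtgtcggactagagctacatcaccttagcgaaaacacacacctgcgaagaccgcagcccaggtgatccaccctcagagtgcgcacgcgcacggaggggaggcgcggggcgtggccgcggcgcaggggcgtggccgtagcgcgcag
Suz12: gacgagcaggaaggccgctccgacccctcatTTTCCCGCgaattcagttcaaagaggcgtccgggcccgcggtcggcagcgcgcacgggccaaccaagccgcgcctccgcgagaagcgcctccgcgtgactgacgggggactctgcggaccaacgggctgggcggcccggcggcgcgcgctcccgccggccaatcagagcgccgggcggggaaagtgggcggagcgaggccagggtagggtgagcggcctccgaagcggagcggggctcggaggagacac
The Ezh2 window held 1 match, beginning at base 4 from the start, the Suz12 window held 1 at base -219, and the Ezh1 window held 0. Of the 28 members with a window, 3 held such a match (10.7%), namely Ezh2, Suz12 and Phf19, against 588 of 27025 genes (2.18%). The member windows are rich in CG, with a median of 25 CG dinucleotides against 7 over all genes, and CG occurs in each spelling of the motif.

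Suz12 had 12.6, 23.7 and 26.1 TPM in db/db HSCs, against 15.8, 13.5 and 21.0 TPM in WT HSCs. Eed had 23.8, 27.6 and 18.9 TPM in db/db HSCs, against 21.8, 13.8 and 25.02 TPM in WT HSCs. Both groups overlapped for both genes, and for Eed the db/db library of experiment 3 was below its WT partner. Rbbp7 had 149, 185 and 223 TPM in db/db HSCs, against 98.9, 109 and 199 TPM in WT HSCs, with a log2 fold change of 0.50 ± 0.29 (SE) and an unadjusted p of 0.0936 and an adjusted p of 0.919 by limma. With the replicate block, the unadjusted p for Rbbp7 was 0.0363 and the adjusted p 0.674 by limma. Rbbp4 had 70.3, 80.2 and 89.5 TPM in db/db HSCs, against 54.3, 50.9 and 87.5 TPM in WT HSCs. Rbbp4 and Rbbp7 were higher in db/db HSCs in each of the 3 experiments, but the WT library of experiment 3 lay above at least 1 db/db library for both. The RBBP4 and RBBP7 proteins are close paralogues that also serve in other histone complexes, and how reads shared by paralogues were split between them is not known from the values.

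The PRC2 accessory genes encode JARID2, which helps PRC2 find its sites, and the 3 Polycomb-like proteins PHF1, MTF2 and PHF19, which bind DNA and methylated histone H3. All 4 had a log2 fold change above that of the median gene, by a median of 0.23 (0.25, 0.41 and -0.083 in experiments 1, 2 and 3). Phf1 had 9.70, 14.6 and 14.1 TPM in db/db HSCs, against 9.12, 7.70 and 7.61 TPM in WT HSCs. The groups did not overlap, with a narrow gap in experiment 1; the log2 fold change was 0.58 ± 0.41 (SE), with an adjusted p of 0.9198 by limma. Phf19 had 13.9, 11.4 and 6.84 TPM in db/db HSCs, against 5.82, 9.03 and 6.26 TPM in WT HSCs. The db/db library was above its WT partner in each experiment, while the db/db library of experiment 3 was below the WT library of experiment 2. Mtf2, the most abundant of the 3 Polycomb-like genes, had 22.8, 39.1 and 23.5 TPM in db/db HSCs, against 16.9, 20.9 and 30.5 TPM in WT HSCs. Summed over Phf1, Mtf2 and Phf19, the level was 46.5, 65.0 and 44.5 TPM in db/db HSCs and 31.9, 37.6 and 44.3 TPM in WT HSCs, so the groups did not overlap but nearly met in experiment 3. Jarid2 had 13.0, 16.7 and 17.8 TPM in db/db HSCs, against 14.3, 7.70 and 19.0 TPM in WT HSCs, and only experiment 2 had the db/db library above the WT one.

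The 8 RING and PCGF genes of PRC1 had a median log2 fold change 0.18 above that of all genes, and within experiments 1, 2 and 3 it was -0.19, 0.57 and 0.21 relative to all genes. Among them, Pcgf5 had the largest fold change of the 34. PCGF5 and PCGF3 are close relatives that build variant PRC1 complexes with RYBP or YAF2 and AUTS2. Pcgf5 had 41.2, 52.5 and 39.8 TPM in db/db HSCs, against 17.6, 17.97 and 29.4 TPM in WT HSCs. Every db/db library was above every WT library, and the WT library of experiment 3 was the one nearest to them. The means were 44.5 ± 6.98 TPM and 21.6 ± 6.69 TPM (SD, n = 3 each), a ratio of 2.06, and the log2 fold change was 1.04 ± 0.34 (SE). Within experiments, the log2 differences were 1.18, 1.497 and 0.43, and the fold change was 0.85 above that of the median gene. The unadjusted p was 0.00542 and the adjusted p 0.619 by limma, so Pcgf5 did not pass; over 16 alternative settings its adjusted p by limma ranged from 0.122 to 1. The Pcgf5 promoter is printed because the study's title concerns the repressor GFI1, which binds sites with the core AATC; the window is at chr19:36348079-36348358 on the plus strand (RefSeq, GRCm38.p6), the most upstream of 3 starts, and capitals mark AATC on either strand.
Pcgf5: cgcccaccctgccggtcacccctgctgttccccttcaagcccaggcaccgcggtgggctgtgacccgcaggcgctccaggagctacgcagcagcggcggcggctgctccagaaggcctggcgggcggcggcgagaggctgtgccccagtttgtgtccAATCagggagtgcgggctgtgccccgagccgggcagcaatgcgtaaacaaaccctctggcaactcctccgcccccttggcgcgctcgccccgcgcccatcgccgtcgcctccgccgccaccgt
The window held 1 match, at base -93. This core is short, and 72.3% of all 27025 windows held it, against 15 of 28 member windows (53.6%).

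The other PCGF genes had smaller log2 fold changes, between 0.11 and 0.58. Pcgf3 had 12.3, 19.6 and 11.1 TPM in db/db HSCs, against 8.76, 6.88 and 11.8 TPM in WT HSCs, so experiment 3 had the WT library higher. Pcgf6, whose protein works with MGA and L3MBTL2 in a variant PRC1, had 15.0, 15.8 and 18.6 TPM in db/db HSCs, against 13.5, 13.7 and 12.6 TPM in WT HSCs. Its groups did not overlap, its log2 fold change was 0.28 ± 0.37 (SE), and its libraries varied little within a genotype, with a residual spread at percentile 0.922 of all genes tested. Pcgf1, whose protein pairs with KDM2B and BCOR, was the reverse, with a spread at percentile 99.2. It had 7.12, 75.9 and 34.2 TPM in db/db HSCs, against 8.14, 15.4 and 44.2 TPM in WT HSCs, and both genotypes had their low library in experiment 1. The log2 fold change of Pcgf1 was 0.57 with all libraries and -0.16 without db/db replicate 2.

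Bmi1 and Pcgf2 encode the PCGF proteins of canonical PRC1. Bmi1 had 8.95, 22.6 and 8.84 TPM in db/db HSCs, against 10.5, 11.7 and 11.5 TPM in WT HSCs; 1 db/db library was high and the other 2 were below every WT library. Pcgf2 had 31.0, 26.3 and 42.9 TPM in db/db HSCs, against 38.0, 12.1 and 34.5 TPM in WT HSCs, and its groups overlapped. The RING genes also overlapped. Ring1 had 21.9, 36.2 and 29.1 TPM in db/db HSCs, against 31.7, 19.4 and 17.6 TPM in WT HSCs, and Rnf2 had 17.8, 38.3 and 21.95 TPM in db/db HSCs, against 21.5, 19.0 and 17.7 TPM in WT HSCs. For both, the WT library was the higher one in experiment 1 and the db/db library in experiments 2 and 3.

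As a share of the summed TPM of the 6 PCGF genes, Pcgf5 made up 35.7%, 24.7% and 25.6% in db/db HSCs and 18.2%, 23.2% and 20.4% in WT HSCs. The groups did not overlap, and experiments 2 and 3 differed by less than experiment 1. The share of Bmi1 was 7.75%, 10.6% and 5.69% in db/db HSCs and 10.9%, 15.0% and 7.999% in WT HSCs, lower in the db/db library of each experiment but overlapping between the groups. Shares within a family do not depend on the scaling of the library, but a larger share of 1 gene lowers the shares of the others. No test was made of the shares.

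**Figure D3:**
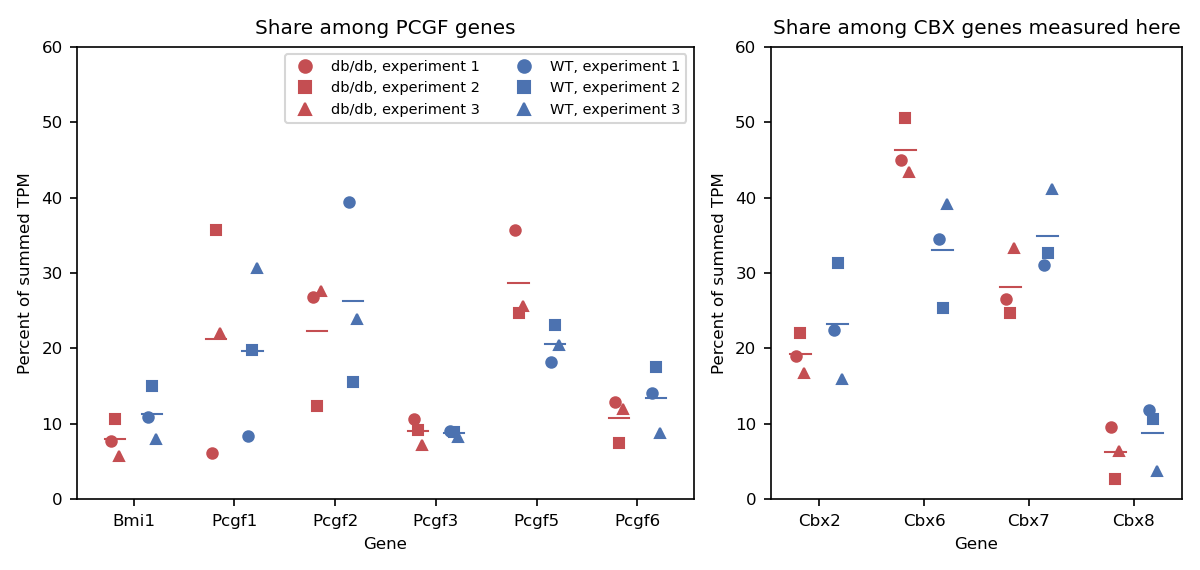
Share of each PCGF gene (left) and each CBX gene among the members (right) in the summed TPM of its family, in percent, with db/db libraries in red, WT libraries in blue, and lines at the group means. Pcgf5 (mean 28.7% in db/db HSCs, 20.6% in WT HSCs) and Cbx6 (mean 46.4% in db/db HSCs, 33.0% in WT HSCs) are the genes whose groups do not overlap.

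The 9 CBX, PHC, SCM and RYBP genes had the lowest median of the 5 role groups, -0.11 relative to that of all genes, and 2 of 9 lay above it, Cbx6 and Phc1. Within experiments 1, 2 and 3, it was -0.34, -0.16 and 0.21 relative to all genes. CBX proteins bind methylated H3K27 and bring canonical PRC1 to PRC2 sites. Cbx6 had 24.2, 26.3 and 34.3 TPM in db/db HSCs, against 20.3, 9.07 and 21.96 TPM in WT HSCs, without overlap. Its log2 fold change was 0.76 ± 0.38 (SE), with an unadjusted p of 0.0581 and an adjusted p of 0.919 by limma. Without WT replicate 2, the lowest library, the log2 fold change was 0.39. With the replicate block, the unadjusted p was 0.0413 and the adjusted p 0.689 by limma. The exons of Cbx6 overlap those of Npcd on the same strand in the GENCODE M21 annotation, so its level is uncertain; Npcd was listed at 3.98, 2.57 and 2.91 TPM in db/db HSCs and 4.47, 3.87 and 2.65 TPM in WT HSCs. None of the other 33 members overlapped another gene in this way.

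Cbx7 had 14.2, 12.8 and 26.3 TPM in db/db HSCs, against 18.3, 11.7 and 23.0 TPM in WT HSCs, and a log2 fold change of -0.010 ± 0.40 (SE). Cbx2 had 10.2, 11.5 and 13.2 TPM in db/db HSCs, against 13.2, 11.2 and 8.90 TPM in WT HSCs. Cbx8 was the lowest member, with 5.10, 1.37 and 5.06 TPM in db/db HSCs, against 6.99, 3.78 and 2.10 TPM in WT HSCs. All 3 overlapped between the groups. Among these 4 CBX genes, Cbx6 made up 45.0%, 50.6% and 43.4% of the summed TPM in db/db HSCs and 34.6%, 25.4% and 39.2% in WT HSCs, without overlap, and Cbx7 made up 26.5%, 24.7% and 33.4% in db/db HSCs and 31.1%, 32.7% and 41.1% in WT HSCs.

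The PHC proteins form the polymers that link PRC1 complexes. Phc1 had 40.6, 59.8 and 67.6 TPM in db/db HSCs, against 44.7, 42.0 and 54.6 TPM in WT HSCs. Phc2 had 14.3, 15.2 and 25.8 TPM in db/db HSCs, against 20.5, 21.3 and 20.4 TPM in WT HSCs; 2 db/db libraries were below every WT library and the third db/db library was above them. Phc3 stayed between 9.34 and 9.52 TPM in db/db HSCs and between 6.68 and 10.1 TPM in WT HSCs. Scmh1, which encodes a further SAM-domain partner of PHC proteins, had 41.3, 54.3 and 38.7 TPM in db/db HSCs, against 44.5, 44.2 and 37.6 TPM in WT HSCs. Rybp, of variant PRC1, had 6.92, 19.8 and 14.1 TPM in db/db HSCs, against 17.6, 11.2 and 22.7 TPM in WT HSCs. Its log2 fold change of -0.37 ± 0.43 (SE) was the lowest of the 34, yet experiment 2 went the other way.

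The opposing factors had a median log2 fold change 0.076 above that of all genes, with 4 of 7 above it. Within each experiment, however, their median was below that of all genes, at -0.066, -0.12 and -0.17 in experiments 1, 2 and 3. DOT1L methylates lysine 79 of histone H3 in transcribed genes. Dot1l had 17.95, 19.5 and 11.6 TPM in db/db HSCs, against 6.83, 10.2 and 10.4 TPM in WT HSCs, without overlap, and the gap was small in experiment 3. Its log2 fold change was 0.76 ± 0.40 (SE), with an unadjusted p of 0.0717 and an adjusted p of 0.919 by limma. Men1, whose protein menin ties MLL methyltransferases to chromatin, had 60.2, 50.02 and 54.2 TPM in db/db HSCs, against 38.6, 39.5 and 52.4 TPM in WT HSCs. It was higher in the db/db library of each experiment, while the WT library of experiment 3 was above the db/db library of experiment 2.

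BAP1 removes ubiquitin from histone H2A and so acts against PRC1. Bap1 had 29.6, 41.0 and 43.1 TPM in db/db HSCs, against 43.9, 42.4 and 47.6 TPM in WT HSCs, and a log2 fold change of -0.25 ± 0.31 (SE). It was lower in the db/db library of each experiment, with a log2 difference of only -0.047 in experiment 2. Kdm6b, which encodes an H3K27 demethylase, had 22.7, 23.3 and 28.5 TPM in db/db HSCs, against 23.8, 8.04 and 30.4 TPM in WT HSCs; its log2 fold change of 0.43 was -0.12 without WT replicate 2. Ash1l, which encodes an H3K36 methyltransferase, had 8.02, 22.2 and 14.1 TPM in db/db HSCs, against 10.4, 9.20 and 15.0 TPM in WT HSCs. The H3K4 methyltransferase subunits Ash2l and Wdr5 overlapped as well. Ash2l had 16.0, 26.6 and 45.5 TPM in db/db HSCs, against 28.6, 28.1 and 40.2 TPM in WT HSCs, and Wdr5 had 42.1, 27.5 and 38.4 TPM in db/db HSCs, against 27.3, 37.6 and 43.2 TPM in WT HSCs.

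Ratios between members that fill the same place in a complex were compared for 8 pairs, as log2((TPM + 1)/(TPM + 1)). None reached the threshold, and an exact two-sided permutation test of 3 against 3 libraries cannot give a p below 0.1. The Phc1/Phc2 ratio averaged 1.57 ± 0.30 in db/db HSCs and 1.14 ± 0.22 in WT HSCs (SD, n = 3 each; exact permutation p = 0.2). The Rbbp7/Rbbp4 ratio averaged 1.19 ± 0.12 in db/db HSCs and 1.04 ± 0.17 in WT HSCs and was higher in each of the 3 experiments (exact permutation p = 0.3). For Ezh1/Ezh2 the difference was -0.12 (exact permutation p = 0.7), and for Bmi1/Pcgf2 it was -0.25 (exact permutation p = 0.6). The other 4, Rnf2/Ring1, Phf19/Mtf2, Cbx7/Cbx8 and Cbx7/Cbx2, differed by -0.016, 0.21, 0.13 and -0.078, with exact permutation p-values of 0.7 to 1. After Benjamini-Hochberg adjustment over the 8 ratios every p was 1 by the exact permutation test.

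The members also moved with the libraries. As deviations from each gene's mean log2 level over the 6 libraries, the median member was at -0.060, 0.27 and 0.31 in the db/db libraries of experiments 1, 2 and 3, and at -0.13, -0.36 and 0.18 in the WT libraries. The median of all genes was at -0.13, 0.15 and 0.26 in the db/db libraries and -0.13, -0.28 and 0.16 in the WT libraries. WT replicate 2 was thus lowest for both, and the members differed from all genes by 0.068, 0.12 and 0.051 in db/db HSCs and by 0.0062, -0.075 and 0.019 in WT HSCs.

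Other genes of the Polycomb system were examined by lists, and in none of them did a gene pass the limma test. Of 20 further Polycomb subunits and partners, 18 were tested, 0 passed, and 11 exceeded the all-gene median. Those of smallest p were Yaf2, Yy1 and Dcaf7. Yaf2, the relative of Rybp, averaged 35.8 ± 15.8 TPM in db/db HSCs and 23.8 ± 8.43 TPM in WT HSCs, and Yy1, a DNA-binding factor, averaged 47.3 ± 16.2 TPM in db/db HSCs and 33.4 ± 9.59 TPM in WT HSCs (SD, n = 3 each). Dcaf7, a partner of PCGF3 and PCGF5 complexes, was the most abundant of the list, at 126 ± 20.1 TPM in db/db HSCs and 101 ± 29.8 TPM in WT HSCs. L3mbtl1 was listed at 0. Auts2 did not pass the filter, at 0.15, 2.16 and 0.32 TPM in db/db HSCs and 0.23, 0.42 and 0.41 TPM in WT HSCs.

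Of 13 genes of H2A deubiquitination, 12 were tested and 6 exceeded the all-gene median. Foxk1, a forkhead partner of BAP1, averaged 42.5 ± 7.35 TPM in db/db HSCs and 26.1 ± 10.6 TPM in WT HSCs, with an unadjusted p of 0.0441 and an adjusted p of 0.919 by limma. Usp21, a deubiquitinase, had 17.0, 19.2 and 24.28 TPM in db/db HSCs, against 39.2, 24.33 and 25.2 TPM in WT HSCs. The db/db libraries were lower without overlap, but the db/db library of experiment 3 nearly met the WT library of experiment 2. Ogt, the O-GlcNAc transferase, was the third by p, and Hcfc1, a further BAP1 partner, was the most abundant, at 105 ± 24.2 TPM in db/db HSCs and 87.2 ± 21.6 TPM in WT HSCs.

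All 17 Trithorax and H3 methylation genes were tested, and 13 exceeded the all-gene median. Setd1a, an H3K4 methyltransferase gene, averaged 47.7 ± 7.49 TPM in db/db HSCs and 33.9 ± 8.46 TPM in WT HSCs. Rbbp5, a core subunit of the same complexes, went the other way, at 23.4 ± 10.3 TPM in db/db HSCs and 32.9 ± 10.8 TPM in WT HSCs. Kdm6a, which encodes the other H3K27 demethylase, averaged 30.5 ± 9.96 TPM in db/db HSCs and 21.7 ± 4.83 TPM in WT HSCs. Dpy30 was the most abundant, at 182 ± 29.0 TPM in db/db HSCs and 157 ± 44.8 TPM in WT HSCs. All 6 DOT1L partners were tested, and 4 exceeded the all-gene median; Aff4, Aff1 and Mllt10 had the smallest p, and Mllt3 the highest level, at 52.5 ± 16.5 TPM in db/db HSCs and 43.1 ± 12.7 TPM in WT HSCs.

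**Figure D4:**
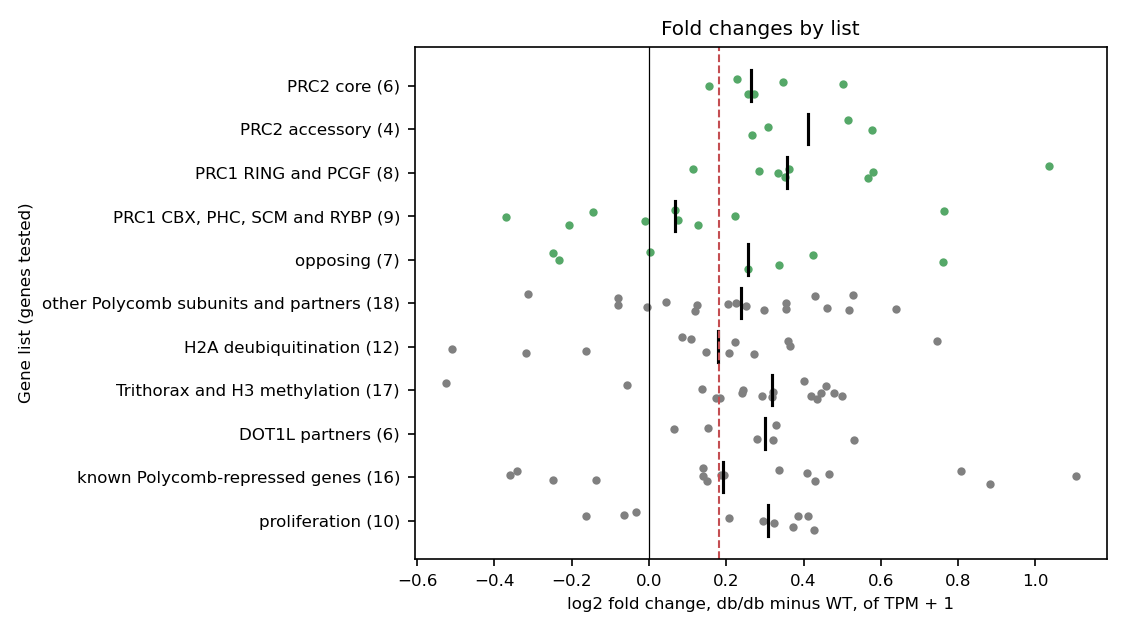
Log2 fold change, db/db minus WT, of TPM + 1, of every tested gene in the 5 role groups of members (green) and in the other lists (grey), with black bars at the medians and the dashed red line at the median of all genes tested (0.18). The bar of the PRC2 accessory genes lies farthest from the dashed line, at 0.41, and that of the CBX, PHC, SCM and RYBP genes lies left of it at 0.068.

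Genes known to be repressed by Polycomb in some cell types were read as a further list of 31, of which 16 were tested. Those 16 averaged at least 1 TPM, so their transcripts were present in these libraries. Whether Polycomb acts on any of the 31 in these HSCs was not measured. Of the 31, 9 were listed at 0 in all 6 libraries: Cdkn2a, Cdkn2b, Ebf1, Pax5, Gata4, Gata6, Hoxa13, Hoxb1 and Hoxb13. Cdkn2a and Cdkn2b encode inhibitors of the cell cycle, and Ebf1 and Pax5 drive the B lineage. None of the 16 passed, and 9 of them exceeded the all-gene median. Hoxa7 had 6.69, 8.39 and 9.89 TPM in db/db HSCs, against 2.37, 5.85 and 2.43 TPM in WT HSCs, without overlap; its log2 fold change was 1.10 ± 0.48 (SE), with an unadjusted p of 0.0317 and an adjusted p of 0.899 by limma. Hmga2, a chromatin protein of fetal HSCs, had 9.76, 15.5 and 6.46 TPM in db/db HSCs, against 5.37, 4.43 and 6.14 TPM in WT HSCs. These groups also did not overlap, with an adjusted p of 0.919 by limma. The Hmga2 gap was narrow in experiment 3, and its groups overlap once divided by the median-of-ratios factors. Hoxb8 averaged 1.80 ± 1.23 TPM in db/db HSCs and 0.443 ± 0.387 TPM in WT HSCs. Hoxa9, the most abundant gene of the list, averaged 17.9 ± 4.08 TPM in db/db HSCs and 14.0 ± 3.04 TPM in WT HSCs.

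**Figure D5:**
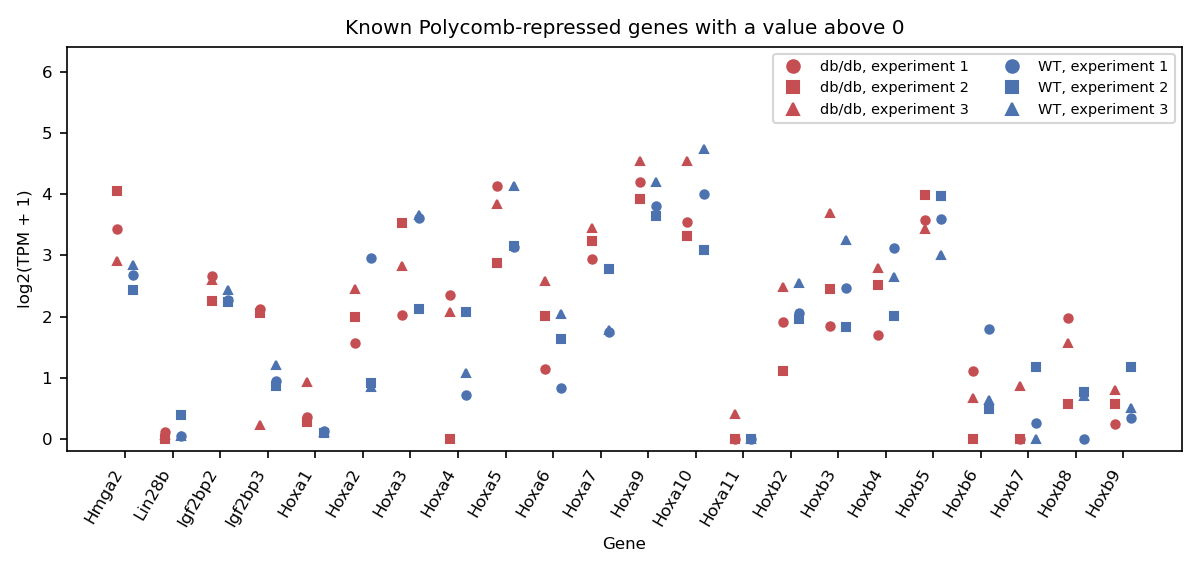
Level of the genes known to be repressed by Polycomb in some cell types and with a value above 0, as log2(TPM + 1), with db/db libraries in red left of WT libraries in blue. Hoxa7 and, by a narrow gap, Hmga2 are the tested genes whose groups do not overlap without scaling, and Hoxa9 has the highest mean level.

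All 10 proliferation genes were tested, 0 passed, and 7 exceeded the all-gene median. Pcna, the replication clamp, was the most abundant, at 679 ± 129 TPM in db/db HSCs and 504 ± 96.3 TPM in WT HSCs, with an adjusted p of 0.919 by limma. Mcm2, of the replicative helicase, averaged 94.5 ± 6.76 TPM in db/db HSCs and 72.3 ± 8.41 TPM in WT HSCs, and Rrm2 averaged 38.6 ± 10.7 TPM in db/db HSCs and 28.6 ± 7.06 TPM in WT HSCs. The part of the proliferation genes in the values of the Polycomb genes was not tested.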

How the data were processed

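RNA from sorted HSCs of 3 db/db and 3 WT samples was sequenced with a stranded mRNA kit, per the labels. The TPM values were made and deposited by the authors with RSEM and Bowtie2 on mm9, per the submitters' processing notes. The tool versions, the settings and the annotation are not given in the sources used. Depth is unknown, so no counting interval is given.

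From the deposited TPM, genes averaging 1 TPM or more were tested on log2(TPM + 1) with limma 3.58.1 in R 4.3.3 (genotype only, two-sided, moderation with a trend, Benjamini-Hochberg adjustment over all genes tested). A fold change on this scale understates that of low genes. The test was checked on simulated data, with changes larger than that of any member and with independent noise. That check does not cover changes of the members' size or shifts shared by a whole library. Ratios were compared by exact permutation. The spread of a gene is its residual SD.

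All 34 members are named. Of each other list, genes that passed, up to 3 tested genes of smallest p and the most abundant gene are named. Some genes that were not tested are named as well. A further marker gene is not reported here. The members and lists were chosen with earlier results of these data known. The labels say that the 3 numbers mark independent experiments, which pairs the libraries; deviations from the group means correlated by 0.040, 0.012 and 0.16 within experiments and by -0.12 to 0.081 between them. P-values measure the spread between these samples.

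Alternatives were the pseudocount, the filter, 2 scalings, a robust prior, moderation with no trend, weights per library, the replicate block, each library left out and another threshold. Where a library was left out, the genes tested were those that passed the filter on all 6 libraries; filtering again on the 5 remaining libraries was added after seeing the data.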

Additional observations from a re-analysis of the deposited data

How the results depend on the processing

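None of the members passed the limma test under any alternative; at an unadjusted p under 0.05, 1 to 4 of them did by limma, all higher in db/db HSCs and Pcgf5 among them each time. Over the same fits, 2.21% to 11.5% of all genes tested were higher and 0.947% to 3.21% lower at that p; the 4 members came with array weights, where 11.5% of all genes were higher. Of 543 recomputed fold changes of members, 505 kept their direction and 38 did not. The relative median of the members, 0.088, was 0.035 to 0.13 with 1 library left out. The count of all genes that passed, 4, was 0 without a filter, 1 with median-of-ratios scaling, 1 with quantile normalization, 0 without a trend, 1 with a robust prior, 16 with array weights and 7 at an adjusted p under 0.1; paired by experiment (the replicate block) it was 6. It was 0 without db/db replicate 2 and 16 without WT replicate 1, the extremes when the genes tested were held fixed. That choice was made after a first run, in which the filter was set again on the 5 remaining libraries, had given 4 to 18 (7 without db/db replicate 1, 10 without db/db replicate 3 and 18 without WT replicate 1), so this count depends on the gene set tested, and the members' count of 0 did not. The block changed no call of a member. Log2 fold changes that turned were, with median-of-ratios scaling, Ezh1 -0.033, Bmi1 -0.067, Cbx2 -0.12, Phc3 -0.046, Scmh1 -0.12 and Wdr5 -0.19; with quantile normalization, Ezh1 -0.046, Bmi1 -0.091, Cbx2 -0.14, Phc3 -0.078, Scmh1 -0.10 and Wdr5 -0.19; and with array weights, Cbx2 -0.018 and Cbx7 0.026. With 1 library left out, values ranged from -0.16 to 0.51 for Ezh1, -0.012 to 0.39 for Eed, -0.070 to 0.53 for Jarid2, -0.30 to 0.33 for Bmi1, -0.16 to 1.46 for Pcgf1, -0.14 to 0.65 for Pcgf2, -0.070 to 0.19 for Cbx2, -0.31 to 0.20 for Cbx7, -0.48 to 0.31 for Cbx8, -0.031 to 0.24 for Phc3, -0.069 to 0.17 for Scmh1, -0.68 to 0.018 for Rybp, -0.12 to 0.78 for Kdm6b, -0.073 to 0.61 for Ash1l, -0.60 to 0.12 for Ash2l and -0.18 to 0.18 for Wdr5. The log2 ratios ranged from -0.27 to 0.065 for Ezh1/Ezh2, -0.19 to 0.083 for Rnf2/Ring1, -0.82 to 0.28 for Bmi1/Pcgf2, -0.13 to 0.42 for Phf19/Mtf2, -0.17 to 0.67 for Cbx7/Cbx8 and -0.35 to 0.27 for Cbx7/Cbx2. The cause was not tested. With depth unknown and 3 libraries a group, a p that misses the threshold does not show that levels were alike.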
